A study of Mus musculus with 9 samples.

Results

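The phagocyte NADPH oxidase genes Cybb, Cyba, Ncf1 and Ncf4 and the Rac GTPase genes Rac1 and Rac2 were examined across the sorted liver macrophage libraries of the study. They were chosen by gene symbol, as subunits of the enzyme that diphenyleneiodonium (DPI) is classically known to inhibit, and all 6 symbols were found among the 23413 genes of the count table. All 6 also passed the filter on low counts that left 11393 genes for testing.

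The study fed male C57BL/6 mice, 5 weeks old at the start, either a normal diet with 10 kcal% fat (ND, 2 libraries) or a high-fat diet with 60 kcal% fat (HFD) for 8 weeks. From week 3 the HFD animals were injected intraperitoneally at 5-day intervals with the polyethylene glycol vehicle (Veh, 3 libraries) or with DPI at 2 mg/kg (DPI, 4 libraries). No injection is given for the ND animals, so ND and Veh differ in diet and in injection, which cannot be told apart. Liver macrophages were sorted as F4/80+CD11b+ cells, with Gr1low added in the study's methods, and polyadenylated RNA was sequenced. The sample labels give a different treatment, 500 nM DPI or DMSO on purified cells for 24 h; the in vivo regimen of the series design was followed here. Each library is labelled with a mouse number, and no genetic change is named for any group.

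The NADPH oxidase of phagocytes moves electrons from NADPH across a membrane onto oxygen and so makes superoxide, the parent of other reactive oxygen species (ROS). Its catalytic core is a heterodimer in the membrane, made of gp91phox (Cybb), which carries the flavin and heme groups, and p22phox (Cyba), which stabilises it. In resting cells p47phox (Ncf1) and p40phox (Ncf4) wait in the cytosol, and the enzyme switches on when they and a GTP-bound Rac protein join the core. DPI reacts with reduced flavins, so it inhibits this oxidase and other flavoenzymes. In the study it was tested as an agonist of the receptor GPR3. The study also used macrophages without p47phox and the oxidase inhibitor apocynin, and proposes that DPI raises glycolysis independently of this oxidase. It further reports less ROS after lipopolysaccharide in liver macrophages of DPI-treated HFD mice. Transcript counts measure neither superoxide nor the enzyme's activity.

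Library totals ran from 3534325 to 15585775 counts (median 4918629), of which 27.0% to 44.5% fell on Rn45s, the ribosomal RNA precursor. Values are in CPM, counts relative to a library total that was adjusted by edgeR's TMM factors. The cells were poor in defining Kupffer cell transcripts. Clec4f, the C-type lectin that marks resident Kupffer cells, had 0 and 45.6 CPM in ND, 9.32, 0 and 0 in Veh, and 13.4, 2.04, 0.74 and 0.61 in DPI. Vsig4 and Timd4, which also mark resident Kupffer cells, did not exceed 5.23 CPM in any library. The general macrophage list (7 genes, led by the lysozyme gene Lyz2) summed to 15231 to 44115 CPM. Lyz2 alone had 13980 to 42930 CPM, which is most of that sum, while Csf1r and Cd68 of the list reached 751 and 392 CPM. The monocyte list (8 genes, with Ly6c2 and Ccr2) summed to 3780 to 9009 CPM. The cells are therefore named by their sort, as sorted liver macrophages, here. Neutrophils, which also carry this oxidase and which the Gr1low gate should remove, left transcripts too. The 13 neutrophil genes found, led by S100a8 and S100a9, summed to 1673 and 3715 CPM in ND, 2702, 3629 and 4199 in Veh, and 1251, 1072, 4260 and 5979 in DPI. In bulk RNA, fewer cells of a type and less RNA per cell cannot be told apart.

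**Figure D1:**
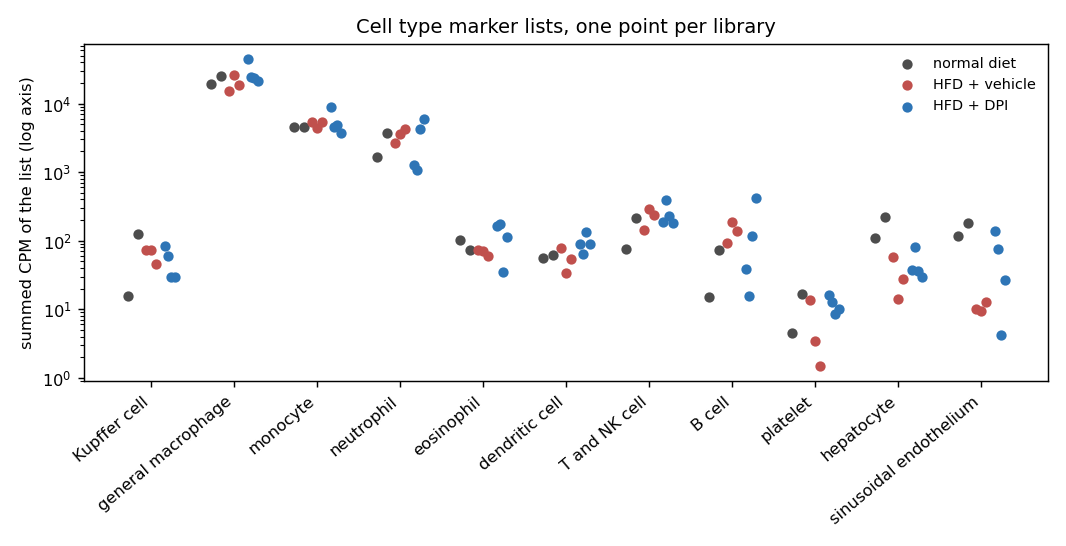
Summed CPM (log axis) of each cell type marker list, with 1 point per library and colours for ND (2), Veh (3) and DPI (4). General macrophage and monocyte genes lie above 3780 CPM in every library, whereas the 10 Kupffer cell genes together do not exceed 126 CPM. Most of the general macrophage sum is Lyz2.

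The genes lie on chromosomes X (Cybb, 9435252 to 9487771), 8 (Cyba, 122424776 to 122432930), 5 (Ncf1, 134220053 to 134229625, and Rac1, 143503634 to 143528036) and 15 (Ncf4, 78244801 to 78262580, and Rac2, 78559167 to 78572783) of GRCm38, the assembly of mm10, in GENCODE M21. Cybb and Cyba encode the partners of one heterodimer, and the 250 bases before their starts are shown because the ratio of their transcripts is one of the results. RefSeq (GRCm38.p6) sequences were found for 3 of the 6 genes, these and Ncf1. Starts are those of RefSeq, and for Cybb that start lies inside the longer span that GENCODE gives the gene. The Cybb and Cyba windows are read from the minus strand, and capitals mark 3 motifs or their reverse complements, namely the CCAAT box, the GC box with the letters GGGCGG, and a pair of GAAA units with any 2 bases between them, the core of an interferon response element.

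Cybb, chrX:9469325-9469574, minus strand: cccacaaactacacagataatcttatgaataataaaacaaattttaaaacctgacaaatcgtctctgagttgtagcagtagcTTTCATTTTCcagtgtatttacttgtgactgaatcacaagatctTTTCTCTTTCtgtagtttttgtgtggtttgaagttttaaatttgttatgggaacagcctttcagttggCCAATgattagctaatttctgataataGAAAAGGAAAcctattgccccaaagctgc
Cyba, chr8:122432941-122433190, minus strand: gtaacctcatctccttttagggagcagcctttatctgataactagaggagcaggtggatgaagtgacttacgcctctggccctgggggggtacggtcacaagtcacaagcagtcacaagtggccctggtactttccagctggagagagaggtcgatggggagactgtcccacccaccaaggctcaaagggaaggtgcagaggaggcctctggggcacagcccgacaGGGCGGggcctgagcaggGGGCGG

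The Cybb window held CCAAT once, 56 to 52 bases before the start, and the GAAA pair 3 times, once on the gene's strand (29 to 20 bases before the start) and 2 times on the opposite strand. The Cyba window held GGGCGG 2 times, 24 to 19 and 6 to 1 bases before the start, and neither of the other motifs. The Ncf1 window held GGGCGG once and the GAAA pair once. Both strands were searched, and overlapping matches of different motifs did not occur in these windows. Of 32851 mouse promoter windows of this length, 33.8% held CCAAT, 32.7% held GGGCGG and 2.98% held the GAAA pair. These are matches of letters only, and no binding was measured.

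All 6 transcripts were well expressed in every library, and Cyba had the highest level per length. Levels per length were counts per kilobase of the longest annotated transcript as a share of the summed value over all genes other than Rn45s, on the scale of CPM. On this scale Cyba had 1888 and 1759 in ND, 2570, 2517 and 2228 in Veh, and 2337, 1972, 1824 and 1566 in DPI. It was the highest of the 6 in all 9 libraries, with the mean transcript length as well, and ranked 98 of 11288 tested genes with a length. Rac2, the Rac protein of blood cells, followed at 262 to 561, and then came Cybb (179 to 462), Ncf4 (158 to 393), Rac1 (100 to 321), the Rac protein found in most cell types, and Ncf1 (87.3 to 187). From Rac2 down, each gene's range overlapped that of the next, so the order of these neighbours did not exceed the spread between libraries. Using the mean transcript length moved Cybb's average over libraries from 265 to 546 and Cyba's from 2073 to 1448, and the order of the averages was the same. The deposited table gives no transcript lengths, so the size of a gap between genes depends on the length assumed.

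**Figure D2:**
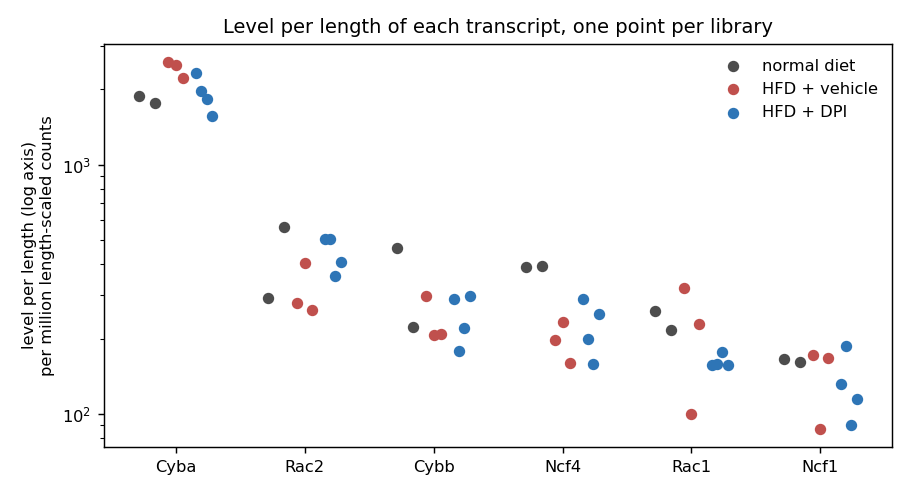
Level per length (log axis, on the scale of CPM) of the 6 transcripts, with 1 point per library in ND, Veh and DPI and genes ordered by their mean. Cyba stands apart at 1566 to 2570, while the ranges of the others overlap their neighbours'.

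Within the membrane heterodimer, Cyba exceeded Cybb per length in all 9 libraries. With the longest transcripts the ratio of Cyba to Cybb, which no scaling between libraries can move, was 4.09 and 7.88 in ND, 8.61, 12.2 and 10.7 in Veh, and 8.12, 11.0, 8.28 and 5.27 in DPI. All 3 Veh libraries lay above both ND libraries, and the DPI libraries spanned the gap between them. With mean transcript lengths the ratio was lower, 1.38 and 2.66 in ND, 2.91 to 4.12 in Veh and 1.78 to 3.72 in DPI, so its size depends on the length taken. With the longest transcripts the ratio of Rac2 to Rac1 was 1.13 and 2.57 in ND, 0.865, 4.04 and 1.14 in Veh, and 3.20, 3.18, 2.02 and 2.59 in DPI. Rac2 exceeded Rac1 in 8 of 9 libraries, the exception being Veh replicate 1. The DPI libraries were the closest together, and the Veh libraries held both the lowest and the highest ratio of the series. Rac1 and Rac2 are close paralogs, so their values are uncertain to the extent that reads fit both and were divided in counting.

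**Figure D3:**
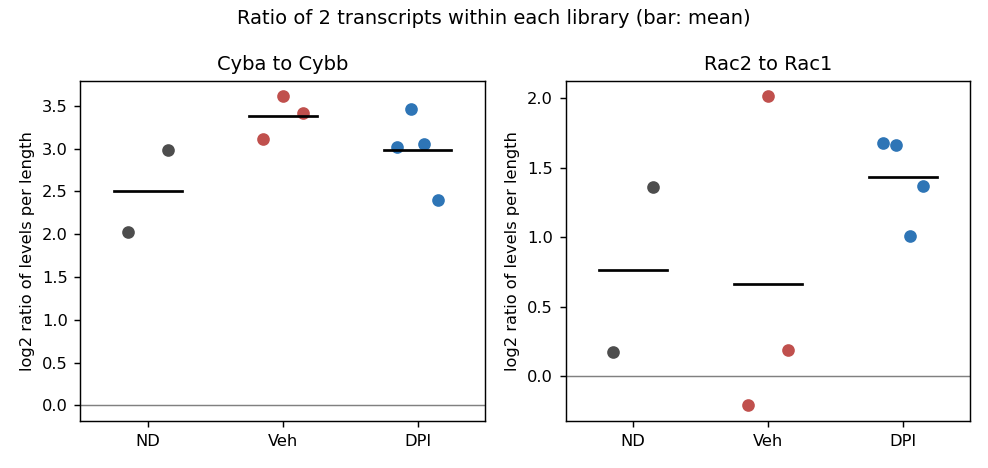
Log2 ratio of levels per length (longest transcript) within each library, Cyba to Cybb on the left and Rac2 to Rac1 on the right, with 1 point per library and a bar for the group mean. The Cyba to Cybb ratio is higher in the 3 Veh libraries (8.61 to 12.2) than in the 2 ND libraries (4.09 and 7.88), and the Rac2 to Rac1 ratio runs from 0.865 to 4.04 within Veh.

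The first comparison asks what the high-fat diet, with vehicle injections, did to these transcripts against ND. Cyba was the only one of the 6 with p under 0.05, and it was higher in every Veh library. Ncf4 was lower in every Veh library, and the other 4 overlapped between the groups. By the study's threshold, an unadjusted p under 0.05 with at least a 2-fold change, 0 of the 6 were called, where 11.7% of all tested genes were. The edgeR quasi-likelihood test was fitted over all 9 libraries, so the groups share one estimate of spread.

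Cyba, the p22phox gene, had 439 and 491 CPM in ND and 725, 860 and 682 CPM in Veh. The groups did not overlap, and the lowest Veh library stood well above the higher ND library. The means were 465 ± 36.8 CPM (SD, n = 2) and 756 ± 92.6 CPM (SD, n = 3). The log2 fold change was 0.70 (SE 0.28, 95% interval 0.10 to 1.30), or 1.63-fold, with an adjusted p of 0.333 by edgeR with Benjamini-Hochberg adjustment. A two-sided exact permutation test gave p = 0.1, the smallest that 3 against 2 libraries allow, and 0.6 after adjustment over 18 such tests. Of all tested genes 13% had p under 0.05 and 15% were higher in every Veh than in every ND library, so neither property sets Cyba apart from other genes. Without ND replicate 1, ND replicate 2 or Veh replicate 2 the log2 fold change was 0.63, 0.81 and 0.60, and with scaling by library size alone it was 0.42, and in each case p was no longer under 0.05.

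Ncf4, the p40phox gene, whose product binds a phosphoinositide of the phagosome membrane, went the other way. It had 177 and 216 CPM in ND and 110, 157 and 96.6 CPM in Veh. Every Veh library lay below both ND libraries, with Veh replicate 2 nearest to them. The log2 fold change was -0.69 (SE 0.33, 95% interval -1.41 to 0.02) with an adjusted p of 0.394 by edgeR, and p was not under 0.05. The two-sided exact permutation test gave p = 0.2. A lower level in every Veh library was seen for 12.5% of all tested genes. Without Veh replicate 2 the value was -0.93 and p was under 0.05.

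Cybb, the gp91phox gene, had 686 and 398 CPM in ND and 538, 450 and 407 CPM in Veh. The ND libraries bracketed all 3 Veh libraries, and the log2 fold change was -0.22 (SE 0.31, 95% interval -0.88 to 0.44). Ncf1, the p47phox gene, whose phosphorylation releases the cytosolic subunits to the membrane, had 149 and 175 CPM in ND and 188, 116 and 199 CPM in Veh. Here the Veh libraries bracketed ND, with a log2 fold change of 0.05 (SE 0.37).

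Rac1 had 335 and 340 CPM in ND and 506, 191 and 394 CPM in Veh, while Rac2 had 276 and 639 CPM in ND and 320, 564 and 328 CPM in Veh. The Rac1 libraries of ND were close together and those of Veh far apart, and for Rac2 the ND libraries enclosed all of Veh. The log2 fold changes were 0.11 (SE 0.35) for Rac1 and -0.18 (SE 0.38) for Rac2. For 4 of the 6 genes the 95% interval of the log2 fold change stayed within a 2-fold change either way, and for Cyba and Ncf4 it reached beyond. The median over the 6 was -0.07, beside 0.03 over all tested genes.

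**Figure D4:**
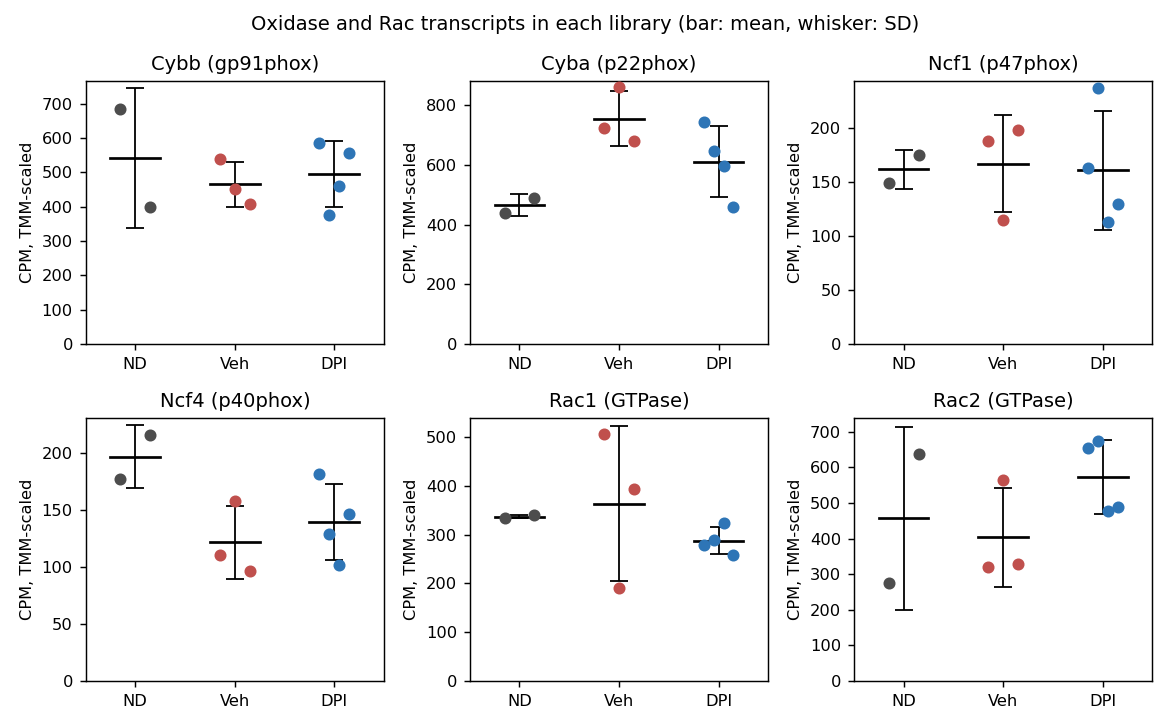
CPM (TMM-scaled, linear axis from 0) of each gene in every library, with points for the 2 ND, 3 Veh and 4 DPI libraries, a bar for the mean and a whisker of 1 SD. Cyba is higher and Ncf4 lower in every Veh library than in ND, and no gene separates DPI from Veh.

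Markers of other cells moved in the same comparison, in which 7.03% of all tested genes were called higher and 4.63% lower. The hepatocyte list (6 genes) summed to 108 and 225 CPM in ND and 14.0 to 57.7 CPM in Veh, with 3 genes called lower. The sinusoidal endothelium list (6 genes) summed to 117 and 182 CPM in ND and 9.43 to 12.9 CPM in Veh, with 3 genes called lower and 1 higher. Emr1, the gene of the sorting marker F4/80, had 139 and 115 CPM in ND and 61.5, 67.3 and 55.0 CPM in Veh. Each of these was lower in every Veh library. Emr1 was the only one of the 7 general macrophage genes that was called; Cd68 of that list was higher in every Veh library (304 to 392 CPM) than in ND (235 and 258 CPM), and Itgam, the gene of the sorting marker CD11b, overlapped. The B cell list (6 genes) summed to 14.9 and 72.1 CPM in ND and 93.9, 188 and 138 CPM in Veh, higher in every Veh library, with 1 gene called higher, and the T and NK cell list (9 genes) also had 1 called higher. Of the 13 neutrophil genes, 3 were called lower and 1 higher, and the monocyte list had 1 called in each direction. The part of these cells in the Cyba and Ncf4 values was not tested.

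The second comparison asks whether DPI, given to HFD mice, altered the transcripts of the enzyme it inhibits. None of the 6 genes separated the DPI from the Veh libraries, as 5.85% of all tested genes did, 0 of 6 were called where 2.84% of all tested genes were, and 0 of 6 had p under 0.05 where 4.13% did. The log2 fold changes lay between -0.34 and 0.50, with a median of 0.02 beside 0.04 over all tested genes. For 5 of the 6 the 95% interval stayed within a 2-fold change either way. The exception was Rac2, whose interval reached 1.19. No gene of the whole table passed an adjusted p of 0.05 by edgeR's quasi-likelihood test, against 470 at an unadjusted p under 0.05, 2 adjusted calls by DESeq2 and 1 by edgeR's likelihood ratio test.

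Rac2 showed the largest of these differences, with 653, 673, 477 and 489 CPM in DPI against 320, 564 and 328 CPM in Veh. All DPI libraries lay above 2 of the Veh libraries, and Veh replicate 2 fell among them. The means were 573 ± 105 CPM (SD, n = 4) and 404 ± 139 CPM (SD, n = 3). The log2 fold change was 0.50 (SE 0.32, 95% interval -0.18 to 1.19) with an adjusted p of 0.999 by edgeR. The two-sided exact permutation test gave p = 0.143, where 0.0286 is the smallest that 4 against 3 libraries allow. Without Veh replicate 2 it was 0.82, with p under 0.05 by edgeR. Rac1 had 279, 290, 324 and 259 CPM in DPI against 506, 191 and 394 CPM in Veh. The DPI libraries sat inside the wide Veh range, and the log2 fold change was -0.34 (SE 0.29, 95% interval -0.97 to 0.30), or -0.64, with p under 0.05 by edgeR, without Veh replicate 2. Without Veh replicate 1, the highest of the group for Rac1, its value was -0.026, and without Veh replicate 3 it was -0.28. For Rac2 these values were 0.35 and 0.36, so both Rac values change with the vehicle library left out.

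For the membrane heterodimer, Cyba had 744, 646, 596 and 460 CPM in DPI, against 725, 860 and 682 CPM in Veh, and Cybb had 586, 376, 459 and 558 CPM, against 538, 450 and 407 CPM. Cyba in DPI replicate 4 lay within the ND range, and DPI replicate 1 lay within the Veh range. The log2 fold changes were -0.31 (SE 0.23, 95% interval -0.79 to 0.18) for Cyba and 0.09 (SE 0.26, 95% interval -0.47 to 0.65) for Cybb. A lowering of Cybb by DPI to below 0.72-fold is outside that interval.

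The cytosolic subunits were as little changed in their averages. Ncf1 had 163, 237, 114 and 130 CPM in DPI, a range that enclosed the Veh libraries, and a log2 fold change of -0.06 (SE 0.31, 95% interval -0.72 to 0.60). Ncf4 had 181, 129, 102 and 146 CPM in DPI, and only DPI replicate 1 exceeded all Veh libraries. Its log2 fold change was 0.20 (SE 0.28, 95% interval -0.41 to 0.81). Summed over the 6 genes, the level was 2062 and 2258 CPM in ND, 2388, 2339 and 2106 in Veh, and 2608, 2351, 2071 and 2041 in DPI, so the groups overlapped and their means, 2160 ± 139, 2277 ± 150 and 2268 ± 266 CPM (SD, n = 2, 3 and 4), lay within 1 SD of DPI from each other.

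**Figure D5:**
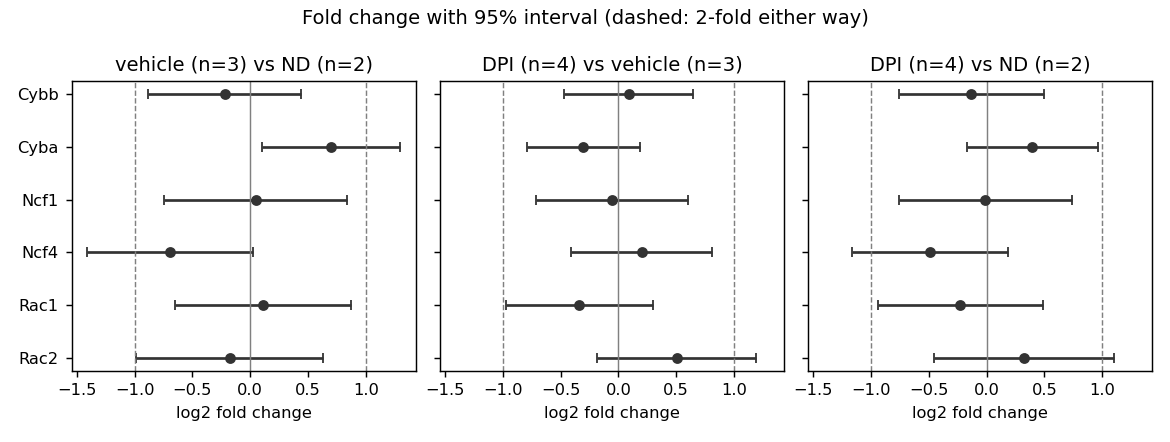
Log2 fold change of each gene (points) with its 95% interval (whiskers) from edgeR in the 3 comparisons, with dashed lines at a 2-fold change. Only the Cyba interval for Veh against ND, 0.10 to 1.30, leaves out 0, and every interval for DPI against Veh includes it.

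Marker transcripts of cell types also differed here, in a comparison in which 1.5% of all tested genes were called higher and 1.34% lower. The Kupffer cell list (10 genes) summed to 45.8 to 72.5 CPM in Veh and 84.6, 60.1, 29.3 and 29.6 CPM in DPI. Of its 5 tested genes, 1 was called lower. The eosinophil list (8 genes) summed to 59.0 to 73.5 CPM in Veh and 164, 178, 35.1 and 113 CPM in DPI, and 4 of its 6 tested genes were called higher. The neutrophil list had 3 of 13 genes called higher, although DPI replicates 1 and 2 held the lowest sums of the series. The sinusoidal endothelium list summed to 9.43 to 12.9 CPM in Veh and 139, 75.7, 4.27 and 26.6 CPM in DPI, with 2 of 6 genes called higher and the highest DPI sums in replicates 1 and 2. Those same libraries had the highest Rac2 values of the series. The part of these cells in the Rac2 and Ncf4 values was not tested.

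Against ND, with which the preceding comparisons share libraries, the DPI group had 0 of 6 genes called where 9.29% of all tested genes were. Cyba had a log2 fold change of 0.40 (SE 0.26) and Ncf4 of -0.49 (SE 0.31), with edgeR adjusted p = 0.605 and 0.587. Rac1 was lower in every DPI library (259 to 324 CPM) than in ND (335 and 340 CPM), as 8.50% of all tested genes were, with a log2 fold change of -0.23 (SE 0.33) and an exact permutation p of 0.133. Rac2 had a log2 fold change of 0.33 (SE 0.36), Cybb of -0.13 (SE 0.29) and Ncf1 of -0.01 (SE 0.35). The hepatocyte list had 3 of 6 genes called lower, where 3.05% of all tested genes were. Called higher were 4 of 6 tested eosinophil genes and 2 of 8 tested T and NK cell genes, where 6.24% of all tested genes were. The neutrophil, dendritic cell, B cell and sinusoidal endothelium lists had 1 called higher each. The part of these cells in the values was not tested. Rac2 was called without ND replicate 2, at 1.09, when 1 ND library was left and was taken to vary like the other groups. In that fit 21.3% of all tested genes were called and 14.7% were called higher.

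The lowest count of any of the 6 genes was 380 (Ncf4), for which counting error alone gives a coefficient of variation of 5.13%, while the groups' own coefficients of variation ran from 1.08% (Rac1 in ND) to 56.1% (Rac2 in ND).

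Around the 6 genes, 0 of the 6 immediate oxidase partners tested were called in any of the 3 comparisons, where 11.7% (Veh against ND), 2.84% (DPI against Veh) and 9.29% (DPI against ND) of all tested genes were, so fewer than 1 call among 6 genes is what those shares give. The table's BC017643, now Cybc1, the chaperone through which the heterodimer is made, had 61.1 to 66.3 CPM in ND, 44.4 to 58.4 CPM in Veh and 35.8 to 81.0 CPM in DPI. The other partners were Arhgdia and Arhgdib, inhibitors that hold Rac in the cytosol, the proton channel Hvcn1, the GTPase Rap1a and the peroxiredoxin Prdx6.

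Of 9 genes of other NADPH oxidases, 8 were not detectable. Nox1, Nox3, Nox4, Noxa1, Duox1, Duox2, Duoxa1 and Duoxa2 had 0 counts in all 9 libraries, where 3 counts correspond to between 0.184 and 1.02 CPM, a limit for counting error only. Noxo1 had 2 to 15 counts in 5 libraries, up to 2.80 CPM, and 0 in the others, and it did not pass the filter on low counts.

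Among 15 exchange factors and GTPase-activating proteins of Rac, 1 rose and 0 fell in Veh against ND, beside 7.03% and 4.63% of all tested genes. Elmo1, which with Dock proteins loads Rac with GTP, had 48.3 and 55.7 CPM in ND, 88.6, 101 and 160 CPM in Veh, and 66.1, 72.0, 60.3 and 100 CPM in DPI. Every Veh library exceeded both ND libraries, with a log2 fold change of 1.17 (SE 0.37, edgeR adjusted p = 0.255) that was 0.92 without Veh replicate 3 and 0.84 with library size alone, both under 2-fold. Against Veh, 0 of the 15 were called in DPI, beside 2.84% of all tested genes. There Abr, a protein that switches Rac off, had 45.5 to 49.7 CPM beside 96.3, 54.0 and 97.1 CPM in Veh (log2 fold change -0.81, SE 0.30, edgeR adjusted p = 0.999). Abr was called, at -1.04, without Veh replicate 2, and its p was no longer under 0.05 without Veh replicate 1 or 3 (-0.69 and -0.68). All 4 DPI values of Abr were below every Veh value, as for 2.48% of all tested genes.

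Of 17 kinases and lipid enzymes upstream of the oxidase, 2 rose and 2 fell in Veh against ND, beside 7.03% and 4.63% of all tested genes. Pik3r1, the regulatory subunit of class I phosphoinositide 3-kinases, had 3.46 and 4.48 CPM in ND, 53.1, 30.7 and 36.2 CPM in Veh, and 8.52, 28.5, 28.4 and 34.2 CPM in DPI. It was lower in both ND libraries than in any of the 7 HFD libraries, with a log2 fold change of 3.32 (SE 0.66, edgeR adjusted p = 0.081). Over the alternatives its adjusted p ran from 0.000129 with DESeq2 to 0.249 with edgeR and the replicate block. Prkca, a protein kinase C that phosphorylates p47phox, had 0 and 7 counts in ND and 48, 55 and 14 in Veh, too few to give a firm fold. Its log2 fold change ranged from 2.62 to 8.77 over the alternatives that could test it, and it was not called with only the ND and Veh libraries fitted (3.57). Mapk14, the p38 kinase, fell with 125 and 48.6 CPM in ND against 24.8 to 40.4 CPM in Veh (log2 fold change -1.42, SE 0.45, edgeR adjusted p = 0.256), and this became -0.57 and was no longer called without ND replicate 1. The other call was Akt1, named after its values were seen because the count is small, at 136 and 15.5 CPM in ND and 21.4 to 33.7 CPM in Veh. In that gene the ND libraries enclosed all of Veh, and the log2 fold change of -1.51 (SE 0.65) turned to 0.78 without ND replicate 1 and was no longer called without any single Veh library (-1.67 to -1.38), with only the ND and Veh libraries fitted (-1.51) or with the replicate block (-1.14).

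In DPI against Veh, 1 of the 17 fell and 0 rose, beside 1.34% and 1.5% of all tested genes. Pik3cg, the catalytic subunit of phosphoinositide 3-kinase gamma, had 136, 43.2 and 62.9 CPM in Veh and 48.6, 18.3, 28.4 and 32.2 CPM in DPI. The groups overlapped, since DPI replicate 1 exceeded Veh replicate 2, and the log2 fold change was -1.33 (SE 0.47, edgeR adjusted p = 0.999). Without Veh replicate 1 it was -0.73 and no longer called. Its partner subunit Pik3r5 had a log2 fold change of -0.76 (SE 0.33, edgeR adjusted p = 0.999), which is under 2-fold.

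The NADPH that feeds the oxidase comes from the pentose phosphate pathway and from cytosolic dehydrogenases. Of 9 NADPH supply genes tested, a list that also holds mitochondrial enzymes (Idh2, Nnt and Nadkd1, now Nadk2), the NAD kinase Nadk and H6pd of the endoplasmic reticulum, 1 fell in Veh against ND, where 4.63% of all tested genes did. Idh1, the cytosolic isocitrate dehydrogenase, had 68.5 and 186 CPM in ND, 47.7, 39.5 and 36.2 CPM in Veh, and 124, 83.6, 33.4 and 36.3 CPM in DPI. All 3 Veh libraries were below ND, with a log2 fold change of -1.63 (SE 0.55, edgeR adjusted p = 0.278). Without ND replicate 2 it was -0.71, which is under 2-fold. The hepatocyte and sinusoidal endothelium sums were also lower in every Veh library than in ND. The part of these cells in the Idh1 value was not tested. Pgd, the second dehydrogenase of the pentose phosphate pathway, had 328 and 243 CPM in ND, 154, 165 and 141 CPM in Veh, and 193, 164, 159 and 101 CPM in DPI. All 7 HFD libraries were below both ND libraries, with log2 fold changes of -0.90 (SE 0.32, edgeR adjusted p = 0.289) for Veh and -0.89 (SE 0.30, edgeR adjusted p = 0.350) for DPI against ND, both under 2-fold and both with an unadjusted p under 0.05. Without ND replicate 1 these were -0.66 and -0.65, and without Veh replicate 3 the Veh value was -0.79, each with p no longer under 0.05. Without ND replicate 2 they were -1.07 and -1.06, with library size alone -1.19 and -1.12, and without DPI replicate 1 the DPI value was -1.02, and in each of these Pgd was called. G6pdx, the first and rate-limiting dehydrogenase of that pathway, had 110 and 79.0 CPM in ND and 34.8 to 68.4 CPM in Veh. In DPI against Veh, 1 of the 9 fell, beside 1.34% of all tested genes. It was H6pd, the counterpart of G6pdx in that compartment, at 3.98 to 8.83 CPM in DPI and 8.89 to 21.6 CPM in Veh (log2 fold change -1.26, SE 0.54, edgeR adjusted p = 0.999). This call held in 4 of 9 fits with a library left out, and was lost without Veh replicate 1 or 3 or DPI replicate 1, 3 or 4, where values ran from -0.99 to -1.31, and with the replicate block (-1.05).

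On the side of ROS removal, 0 of 11 genes tested were called in any comparison, where 11.7% (Veh against ND), 2.84% (DPI against Veh) and 9.29% (DPI against ND) of all tested genes were. Sod2, the mitochondrial superoxide dismutase, had 70.3 and 151 CPM in ND, 179, 217 and 240 CPM in Veh, and 110, 128, 142 and 111 CPM in DPI. Its Veh values lay above every ND and every DPI value, while DPI and ND overlapped. The log2 fold changes were 0.94 (SE 0.35, edgeR adjusted p = 0.314) for Veh against ND and -0.79 (SE 0.29, edgeR adjusted p = 0.999) for DPI against Veh, 2 comparisons that share the Veh libraries and are both under 2-fold. Both had an unadjusted p under 0.05. For Veh against ND this was lost at 0.51 without ND replicate 1 and at 0.65 with scaling by library size alone, while the gene was called at 1.62 without ND replicate 2, at 1.10 without Veh replicate 1 and with thinned counts. For DPI against Veh it was lost at -0.71 without Veh replicate 3. Prdx5, a peroxiredoxin of mitochondria and peroxisomes, had 387 and 436 CPM in ND and 617 to 669 CPM in Veh, with a log2 fold change of 0.66 (SE 0.29, edgeR adjusted p = 0.357) that lost p under 0.05 with library size alone (0.37), by edgeR's likelihood ratio test (0.66), and without either ND library or Veh replicate 1 or 2 (0.59 to 0.78).

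Among 9 transcription factors of oxidase genes tested, 0 were called in any of the 3 comparisons, beside the same shares of all tested genes (11.7%, 2.84% and 9.29%). Sfpi1, which encodes PU.1, the myeloid factor that drives several of these genes, had 386 and 486 CPM in ND, 411, 487 and 414 CPM in Veh, and 463, 407, 605 and 601 CPM in DPI. Of the other flavoenzymes that DPI is known to inhibit, 4 of 7 could be tested, and Nos1, a nitric oxide synthase, had 0 counts in all libraries. Xdh, the xanthine oxidoreductase, which can itself make superoxide, was the 1 gene of these 4 called in Veh against ND, where 4.63% of all tested genes were called lower. It had 244 and 111 CPM in ND, 87.0, 70.5 and 101 CPM in Veh, and 124, 66.6, 61.6 and 72.3 CPM in DPI. All Veh values were below ND and overlapped with DPI, with a log2 fold change of -1.05 (SE 0.40, edgeR adjusted p = 0.320). Without ND replicate 1 it was -0.36, and without Veh replicate 1 or 2 it was -1.01 and -0.92, with the replicate block -0.91, and it was called in none of these. It was also called in DPI against ND, where 3.05% of all tested genes were called lower, with a log2 fold change of -1.13 (SE 0.37, edgeR adjusted p = 0.350) that was -0.44 and no longer called without ND replicate 1.

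Genes with the most similar pattern were sought by Pearson correlation of log2 CPM over the 9 libraries among 6759 other genes with at least 10 counts in every library. Each value is among the highest of that many genes, and the libraries differ in depth and group, so these are descriptions. The nearest to Cyba were Mphosph10 (r = 0.962), Wdr46 (0.951) and Cd68 (0.938), the last a lysosomal glycoprotein of macrophages. Those nearest to Cybb were 1600020E01Rik (0.948), Tmem167b (0.937) and Dnajc1 (0.922), to Ncf1 Acot11 (0.956), Dnmt3a (0.917) and Gm5615 (0.889), and to Ncf4 Lcmt1 (0.934), Acadvl (0.930) and Glb1 (0.918). For the GTPases they were Tbc1d14 (0.962), Rnf31 (0.933) and Clec2d (0.922) for Rac1, and Sars (0.974), the glycolytic enzyme gene Pkm (0.939) and Ube2c (0.938) for Rac2. None of the 18 was another oxidase subunit or Rac gene.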

How the data were processed

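Polyadenylated RNA of sorted mouse liver macrophages was sequenced in 9 libraries. The authors deposited raw counts per gene of reads aligned to mm10. The study's methods name bowtie2 2.2.3 and RSEM 1.2.15, the submitters' processing notes list TopHat2 and edgeR, and which of these made the deposited counts is not settled here. The counts are whole numbers without normalization, and every column belongs to a labelled library. Groups and replicate (mouse) numbers come from the labels.

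Testing used edgeR 4.0.16 under R 4.3.3 (filterByExpr, TMM factors, glmQLFit over 3 groups, glmQLFTest), with Benjamini-Hochberg adjustment over 11393 genes. The call was the study's, an unadjusted p under 0.05 and a 2-fold change in either direction. Standard errors were the log2 fold change divided by the root of F. Exact permutation tests used log2 CPM with a prior count of 2 and count libraries as replicates. Positions and lengths came from GENCODE M21 (98.5% of symbols matched).

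The alternatives tried were DESeq2 1.42.0, edgeR's likelihood ratio test, scaling by RLE or by library size alone, other low-count filters (none, or 10 counts or more in every library), 2-group fits, the replicate number as a block, no Rn45s counts, counts thinned to 3534325, a prior count of 0.5 and each library left out. Genes named were the 6 and the whole oxidase partner and other-oxidase lists. From each other list, genes were taken from the 3 smallest p values for Veh against ND and for DPI against Veh, and not all of these are named. Akt1, Sfpi1, Nos1 and the single marker genes were named after their values were seen. Some genes are not reported here. The members and lists were chosen with earlier results of these data known. Other tools were Python 3.11.15, numpy 2.4.6, pandas 2.3.3, scipy 1.17.1 and matplotlib 3.10.9.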

Additional observations from a re-analysis of the deposited data

Results flagged for a closer look

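Among 39 groups of 4 libraries checked for a library far from the rest, 2 stood out, and about 1 in 20 would by chance. Rap1a, the GTPase that associates with the membrane heterodimer, had 181 CPM in DPI replicate 3 and 100 to 112 CPM in the other DPI libraries, and the gap was 0.848 of the group's range, above Dixon's critical value. Tiam1, a Rac exchange factor, had 4.08 CPM in DPI replicate 2 and 14.3 to 15.4 CPM in the other DPI libraries, a gap of 0.902 of the range.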

How the results depend on the processing

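No member was called in any comparison under any alternative except Rac2 in DPI against ND without ND replicate 2, where the count was 1. With at least 10 counts in every library, 6760 genes were tested. All-gene calls were then 726 for Veh against ND (1329 otherwise), 202 for DPI against Veh (324) and 527 for DPI against ND (1058). The shares called were 10.7%, 2.99% and 7.80%, beside 11.7%, 2.84% and 9.29% otherwise. For DPI against Veh 65 were called higher and 137 lower, beside 171 and 153 otherwise. With no filter 602 were called for DPI against Veh. Leaving out 1 library gave 1027 to 2634, 187 to 543 and 830 to 2626 calls, and 0 to 1 members in DPI against ND. The highest counts for both comparisons with ND came without ND replicate 2, and the lowest for DPI against Veh without Veh replicate 1. Leaving out 1 library in turn also moved log2 fold changes across 0. For Veh against ND these were Akt1 (-2.33 to 0.78), Cybb (-0.53 to 0.23), Ncf1 (-0.057 to 0.26), Rac1 (-0.16 to 0.42) and Rac2 (-0.65 to 0.58). For DPI against Veh they were Cybb (-0.0073 to 0.20) and Ncf1 (-0.31 to 0.078). For DPI against ND they were Cybb (-0.44 to 0.32), Ncf1 (-0.22 to 0.14) and Rac2 (-0.15 to 1.09). With 1 ND or 2 Veh libraries left, those were taken to vary like the other groups.

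With library-size scaling the all-gene median (log2) went from 0.03 to -0.26 (Veh against ND), 0.04 to 0.12 (DPI against Veh) and 0.04 to -0.17 (DPI against ND). The split of higher and lower calls went from 801 and 528 to 539 and 933, from 171 and 153 to 196 and 101, and from 711 and 347 to 546 and 624. Under it Ncf1 turned to -0.26 and Rac1 to -0.19 for Veh against ND and Ncf1 to 0.005 for DPI against Veh, and in the exact tests Ncf1 turned to -0.29 and 0.0022. Ncf1 in DPI against ND turned to 0.0031 with at least 10 counts in every library, 0.0001 with 2 groups only, 0.0006 without Rn45s and 0.009 with thinned counts. None of these reached p under 0.05, and the cause was not tested.

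Same-numbered libraries came from different mice, and the correlations of their deviations from the group means were -0.022 to 0.084. Libraries with different numbers gave -0.084 to 0.061. With group means of so few libraries, these values cannot decide whether the numbers pair libraries. With the replicate block, Rac1 was -0.037 and Rac2 0.018 for Veh against ND, Ncf1 was 0.12 for DPI against ND, and all-gene calls were 897, 401 and 818. Under the block Cyba was 0.77 for Veh against ND, and Cyba in DPI against ND (0.58, otherwise 0.40) and Rac2 in DPI against Veh (0.63, otherwise 0.50) passed an unadjusted p under 0.05 that they otherwise missed. Over 19 alternatives Cyba in Veh against ND ran from 0.42 to 0.82 with p under 0.05 in 15, and Ncf4 from -0.97 to -0.50 with p under 0.05 in 4. Adjusted calls over all genes were 7, 0 and 1 by the quasi-likelihood test and 312, 2 and 219 by DESeq2.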
